A study of Mus musculus with 6 samples.

Results

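The genes described here are the classical MHC class I heavy chain genes H2-K1 and H2-D1 and 8 genes that supply them with peptide, measured in cultured mouse macrophages. They are B2m, Tap1, Tap2, Tapbp, Psmb8, Psmb9, Psmb10 and Psme1. All probe sets whose platform annotation names 1 gene symbol, and that symbol one of these 10 genes, were taken, which gave 27 of the 34945 probe sets with 1 symbol. A probe set is the group of short array probes that reports 1 transcript as 1 log2 value. The members were listed by name, with earlier results of these data known. All 10 lay above the filter on dim genes, so they are 10 of the 13445 genes tested.

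The arrays held RNA of bone marrow-derived macrophages from 17-week-old vimentin-deficient mice and from their wild-type littermates, 3 arrays per genotype, 6 in all. Vimentin is an intermediate filament protein. Both groups were on a C57BL/6 background, and both were grown from femoral marrow at normal oxygen, with supernatant of the CMG14-12 line as the source of mouse M-CSF, the growth factor that drives macrophage differentiation. The labels call the samples of a genotype biological replicates without saying how many animals stand behind each, so the p-values measure the spread between these samples. The study's design concerns vimentin in atherosclerosis-prone mice given vimentin-deficient marrow. No interferon or other stimulus is named for either group.

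Each array gave 45101 values with medians between 7.23 and 7.25. Vim read 8.20, 6.96 and 7.13 on the vimentin-deficient arrays, against 13.41, 13.24 and 13.31 on the wild-type arrays, as the labels say. Vimentin-deficient replicate 3 stood apart: its correlation with the other arrays over all probe sets reached 0.979 at most, while the other 5 arrays correlated with each other at 0.992 or more. The log2 fold changes of all 10 genes are therefore also given without that array. Macrophage markers were bright: the mean of 8 tested genes ran from 11.97 to 12.36 in vimentin-deficient and from 11.91 to 12.07 in wild-type macrophages. The 5 tested of 8 dendritic cell markers averaged 7.47 to 7.60 in vimentin-deficient and 7.53 to 7.56 in wild-type macrophages, closer to the filter value of 6.93.

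MHC class I molecules display peptides from inside the cell to CD8 T cells. Proteasomes cut proteins into peptides, the TAP transporter carries these into the endoplasmic reticulum, and tapasin holds the transporter next to empty class I molecules until a peptide fits. Interferons raise the whole pathway, and in cells exposed to them 3 inducible subunits replace the constitutive catalytic subunits of the proteasome. In macrophages the pathway is active without stimulation and rises with activation.

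With all 6 arrays, 0 of the 10 genes passed the threshold in either direction, a limma p adjusted over all genes under 0.05. The share of all tested genes that passed was 0.0223% in either direction and 0% among higher genes. Adjusted p-values of the 10 genes ran between 0.365 for Tap1 and 0.934 for Psmb9. At an unadjusted limma p under 0.05, 2 genes were higher, Tap1 and Psmb8, where 3.01% of all tested genes were. All 3 vimentin-deficient arrays lay above all 3 wild-type arrays for 3 of the 10 genes, Tap1, Psmb8 and Psme1, against 5.32% of all tested genes, and for the other 7 the groups overlapped. In the opposite direction the count was 0, against 10.1% of all tested genes.

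The differences were small and mostly of 1 sign. The mean was higher in vimentin-deficient macrophages for 9 of the 10 genes, as it was for 39.6% of all tested genes, and the median log2 fold change was 0.19, against -0.02 over all tested genes. Without vimentin-deficient replicate 3 the mean was higher for 10 of 10, against 44.5% of all tested genes, with a median of 0.09, against -0.01. In that comparison of 2 with 3 arrays 1 of the 10, Tap1, passed the threshold as higher, where 1.31% of all tested genes did. These cells were measured in bulk, so a change in RNA per cell and a change in the share of cells that express a gene cannot be told apart.

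**Figure D1:**
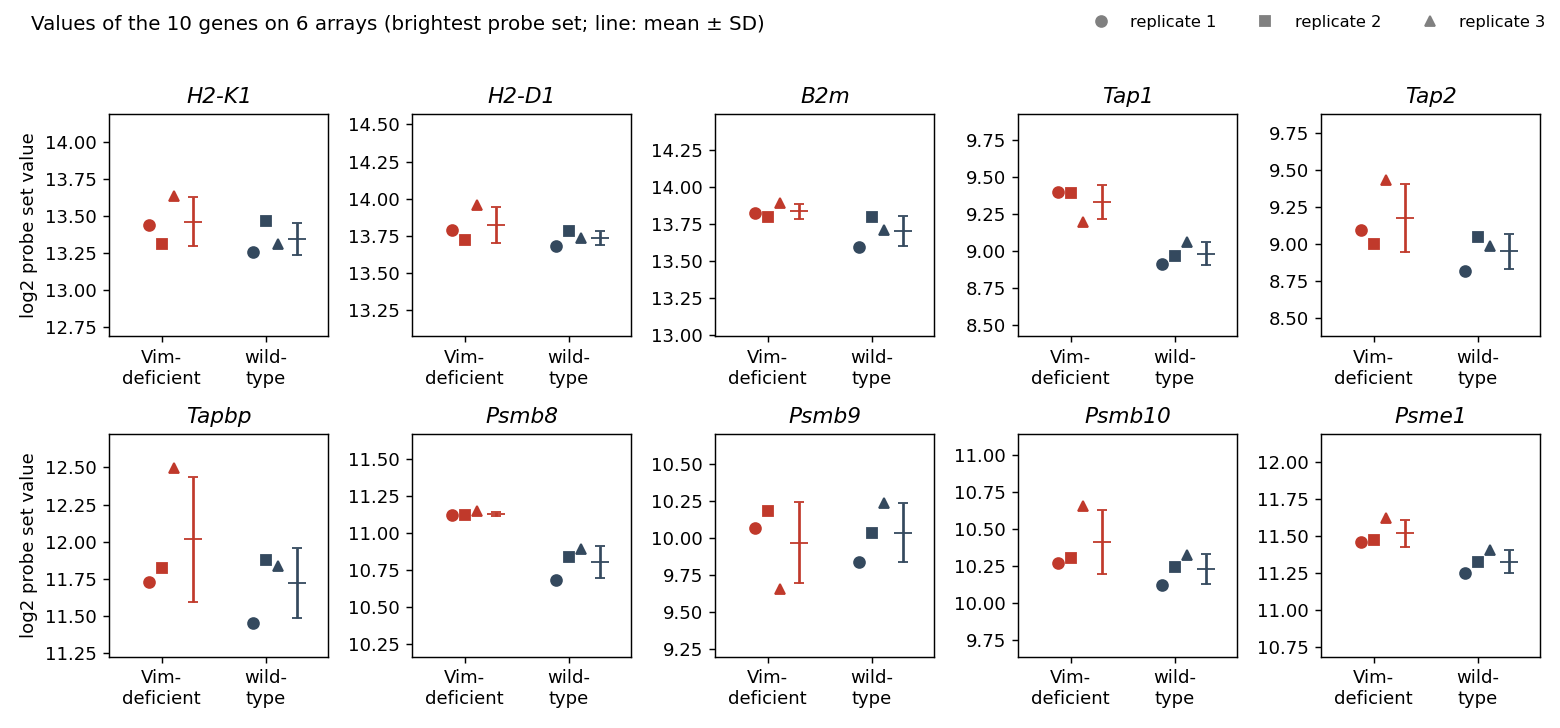
Log2 value of the brightest probe set of each of the 10 genes on each array, vimentin-deficient (red) left of wild-type (dark), with the replicate number as the symbol and mean ± SD (n = 3) beside it; every panel spans 1.5 log2 units. Tap1, Psmb8 and Psme1 do not overlap between genotypes, and vimentin-deficient replicate 3 (triangle) is the highest of the 6 arrays for 8 genes and the lowest for Psmb9.

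By the brightest probe set of each gene and with 6 arrays, Tap1 had the largest fold change of the 10. It encodes a subunit of the transporter that moves peptides into the endoplasmic reticulum. Tap1 read 9.40, 9.39 and 9.19 on the vimentin-deficient arrays, against 8.91, 8.97 and 9.06 on the wild-type arrays. All vimentin-deficient arrays were above all wild-type arrays, and replicate 3 was the lowest of the vimentin-deficient arrays. The means were 9.33 ± 0.12 in vimentin-deficient and 8.98 ± 0.08 in wild-type macrophages (SD, n = 3 each), a 1.27-fold difference (log2 fold change 0.35, SE 0.09, 95% interval 0.14 to 0.55, limma adjusted p = 0.365). Without vimentin-deficient replicate 3 the log2 fold change of Tap1 was 0.41 (SE 0.08), and it passed the threshold (limma adjusted p = 0.0221). Over the alternative settings the adjusted p of Tap1 ran between 0.0221 and 0.997. Of its 4 probe sets, 2 lay under the filter value, with differences of -0.05 each. The remaining probe set lay just above it, with a difference of 0.11 and overlapping arrays. With the mean of a gene's probe sets in place of the brightest, the value of Tap1 was 0.090 (limma adjusted p = 0.541), against 0.298 for Tapbp and 0.278 for Psmb8. Without vimentin-deficient replicate 1 or 2, Tapbp was larger too, at 0.440 and 0.392, against 0.312 and 0.317 for Tap1. Psmb8 was also larger than Tap1 in these fits, at 0.329 and 0.327. Without wild-type replicate 2, Tapbp had 0.372, against 0.341 for Tap1.

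Tap2 encodes the partner subunit of the same transporter and has 1 probe set. It read 9.10, 8.99 and 9.43 in vimentin-deficient and 8.82, 9.05 and 8.98 in wild-type macrophages. The groups overlapped, and replicate 3 supplied the highest value. The log2 fold change was 0.22 (SE 0.13, limma adjusted p = 0.707), and 0.10 without that array.

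Tapbp encodes tapasin, the chaperone that bridges the transporter and the empty class I molecule. It read 11.73, 11.82 and 12.50 in vimentin-deficient, against 11.45, 11.88 and 11.84 in wild-type macrophages. Replicates 1 and 2 of the vimentin-deficient group lay inside the wild-type range, and replicate 3 lay 0.73 above their mean. The log2 fold change of Tapbp was 0.30 (SE 0.22, 95% interval -0.23 to 0.82), and 0.05 (SE 0.12) without replicate 3. Without wild-type replicate 1 it was 0.159. Its second probe set behaved alike, at 0.30 with the array and 0.04 without it.

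Psmb8 encodes the inducible chymotrypsin-like subunit of the immunoproteasome, also called LMP7. It read 11.12, 11.12 and 11.15 on the vimentin-deficient arrays, against 10.69, 10.84 and 10.89 on the wild-type arrays. The groups did not overlap, and the 3 vimentin-deficient arrays lay within 0.03 of each other, replicate 3 included. The means were 11.13 ± 0.01 in vimentin-deficient and 10.81 ± 0.11 in wild-type macrophages (SD, n = 3 each), a 1.25-fold difference (log2 fold change 0.32, SE 0.08, 95% interval 0.13 to 0.52, limma adjusted p = 0.37). Without replicate 3 it was 0.32 again (SE 0.09, limma adjusted p = 0.0968). The second Psmb8 probe set had a difference of 0.23 without overlap.

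The bases before the start of Psmb8 are shown because this gene and Tap1 had the smallest p of the 10. The window runs from 250 bases before to 50 bases after the gene's start, from RefSeq on GRCm38.p6, at chr17:34197945-34198244 on the plus strand. Capitals mark the letters TTCNNNGAA, the core of the gamma-activated site that STAT proteins bind, whose first base lies 97 bases before the start. The same letters occur in 8.3% of the 32851 promoter windows in the table.
Psmb8: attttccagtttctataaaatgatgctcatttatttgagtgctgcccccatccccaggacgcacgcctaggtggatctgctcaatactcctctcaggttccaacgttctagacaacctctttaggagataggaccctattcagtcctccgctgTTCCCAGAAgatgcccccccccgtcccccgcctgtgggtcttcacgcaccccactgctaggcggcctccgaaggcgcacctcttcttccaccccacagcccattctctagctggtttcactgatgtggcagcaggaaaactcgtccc

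Psmb10 encodes the inducible trypsin-like subunit, MECL-1. It read 10.27, 10.31 and 10.66 in vimentin-deficient and 10.12, 10.24 and 10.33 in wild-type macrophages. Replicates 1 and 2 lay within the wild-type range, and the log2 fold change of 0.18 (SE 0.12) was 0.06 without replicate 3. Psme1 encodes the alpha subunit of PA28, a cap that opens the proteasome. It read 11.46, 11.47 and 11.62 in vimentin-deficient, against 11.25, 11.32 and 11.40 in wild-type macrophages, without overlap. Its log2 fold change was 0.19 (SE 0.08, 95% interval -0.0033 to 0.39, limma adjusted p = 0.629), and 0.14 without replicate 3.

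Psmb9 was the only 1 of the 10 with a lower mean. It encodes LMP2, the inducible subunit that takes the place of the constitutive subunit encoded by Psmb6. Psmb9 read 10.07, 10.18 and 9.66 in vimentin-deficient, against 9.84, 10.04 and 10.24 in wild-type macrophages. The groups overlapped, and the lowest of the 6 values came from vimentin-deficient replicate 3. The log2 fold change was -0.07 (SE 0.16, 95% interval -0.46 to 0.32, limma adjusted p = 0.934), and 0.09 (SE 0.11) without that array; without wild-type replicate 3 it was 0.030, so its sign depended on the arrays included.

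Psmb9 and Tap1 lie back to back, and their promoter windows share 275 bases, which is why that stretch is shown. It lies at chr17:34187306-34187580 (GRCm38.p6, RefSeq), printed on the plus strand, along which Tap1 is read, while Psmb9 is read from the other strand. The starts of the genes leave 225 bases between them. Capitals mark CCAAT, the only 1 of the 5 motifs searched that matched there, present in 37.4% of all windows.
Tap1 and Psmb9: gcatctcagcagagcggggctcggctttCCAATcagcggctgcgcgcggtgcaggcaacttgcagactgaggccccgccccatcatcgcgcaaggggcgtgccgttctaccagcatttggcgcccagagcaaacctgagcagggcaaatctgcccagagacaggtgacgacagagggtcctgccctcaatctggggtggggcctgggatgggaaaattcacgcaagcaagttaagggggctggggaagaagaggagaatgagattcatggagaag

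The 2 genes were also compared within each array, by the brightest of the 4 Tap1 probe sets and the 1 Psmb9 probe set. The difference of their log2 values within an array, Tap1 minus Psmb9, was -0.67, -0.79 and -0.46 in vimentin-deficient macrophages, against -0.93, -1.07 and -1.17 in wild-type macrophages. The vimentin-deficient arrays all lay above the wild-type arrays, by 0.42 on average and by 0.33 without replicate 3. This pair was picked after its values were seen, and the difference was not tested. With the mean of a gene's probe sets, the log2 fold change was 0.090 for Tap1 and -0.069 for Psmb9.

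Each inducible subunit was set against the constitutive subunit whose place it takes, again as a log2 difference within each array. Probes differ in brightness, so only the shift of such a difference between genotypes can be read, not its level. Psmb8 minus Psmb5 was -0.11, -0.07 and 0.14 in vimentin-deficient, against -0.50, -0.11 and -0.26 in wild-type macrophages, with a mean difference of 0.28, and of 0.20 without replicate 3. The groups were separated narrowly, by 0.0074 between the lowest vimentin-deficient and the highest wild-type array. Psmb9 minus Psmb6 overlapped, with means of -1.62 ± 0.10 in vimentin-deficient and -1.59 ± 0.17 in wild-type macrophages (SD, n = 3 each). Psmb10 minus Psmb7 overlapped too, at -1.41, -1.25 and -0.63 in vimentin-deficient, against -1.45, -1.22 and -1.22 in wild-type macrophages, where only replicate 3 of the vimentin-deficient group stood out. The constitutive subunits themselves had log2 fold changes of 0.05 for Psmb5 (SE 0.10), -0.03 for Psmb6 (SE 0.13) and -0.02 for Psmb7 (SE 0.11). These differences are descriptions without a test.

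The heavy chains and their partner were bright in both genotypes. H2-K1 and H2-D1 encode the polymorphic chains that bind peptide, and B2m encodes beta-2 microglobulin, the small invariant chain that every class I molecule needs to reach the surface. H2-K1 read 13.44, 13.31 and 13.64 in vimentin-deficient, against 13.26, 13.47 and 13.31 in wild-type macrophages. H2-D1 read 13.79, 13.72 and 13.96 in vimentin-deficient, against 13.68, 13.78 and 13.74 in wild-type macrophages. B2m read 13.82, 13.80 and 13.89 in vimentin-deficient, against 13.60, 13.80 and 13.71 in wild-type macrophages. By the brightest probe sets the groups overlapped for all 3 genes, with vimentin-deficient replicate 3 on top.

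The log2 fold changes were 0.12 for H2-K1 (SE 0.10, 95% interval -0.11 to 0.35), 0.09 for H2-D1 (SE 0.07, interval -0.08 to 0.26) and 0.13 for B2m (SE 0.06, interval -0.02 to 0.28). These intervals belong to the brightest probe set of each gene, and another H2-D1 probe set differed by 0.55. Without replicate 3 the values were 0.03, 0.02 and 0.11. The deposited scale ends at 14.50, and whether values this close to its top are compressed was not tested.

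The windows of both heavy chain genes are shown because their sequences are close copies. In a local alignment the windows were identical at 89.7% of 242 positions. Capitals mark the 3 runs of 20 or more bases that both windows share, the longest 47 bases. H2-K1 lies on the minus strand at chr17:34000284-34000583 and H2-D1 on the plus strand at chr17:35262844-35263143 (GRCm38.p6, RefSeq).
H2-K1: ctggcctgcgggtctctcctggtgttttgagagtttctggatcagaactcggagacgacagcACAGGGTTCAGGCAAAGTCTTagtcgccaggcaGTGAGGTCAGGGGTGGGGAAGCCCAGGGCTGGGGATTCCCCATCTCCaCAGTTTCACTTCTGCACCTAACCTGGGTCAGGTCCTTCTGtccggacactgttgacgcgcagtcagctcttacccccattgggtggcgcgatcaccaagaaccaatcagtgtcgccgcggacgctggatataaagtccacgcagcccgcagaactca
H2-D1: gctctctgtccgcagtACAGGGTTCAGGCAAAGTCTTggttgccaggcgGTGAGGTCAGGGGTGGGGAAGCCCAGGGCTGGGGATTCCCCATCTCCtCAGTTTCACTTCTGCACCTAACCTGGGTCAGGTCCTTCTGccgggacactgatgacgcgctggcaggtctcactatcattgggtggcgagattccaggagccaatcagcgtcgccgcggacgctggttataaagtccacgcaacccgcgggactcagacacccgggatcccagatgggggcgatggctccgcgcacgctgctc

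All 4 probe sets of H2-K1 and 7 of the 9 of H2-D1 carry the suffix _x, which the manufacturer gives to probe sets that can bind other sequences, so the values of the 2 genes may share signal. Neither transcripts nor probes were compared by sequence here. Their differences between genotypes lay in a narrow range for H2-K1, 0.12 to 0.14, and the arrays of 1 of its 4 probe sets did not overlap. For H2-D1 they ran from 0.02 to 0.55. The largest came from a probe set without that suffix, which read 10.74, 10.56 and 11.33 in vimentin-deficient, against 10.01, 10.51 and 10.46 in wild-type macrophages, with no overlap. Fitted as a row of its own among all probe sets, this difference of 0.55 had an SE of 0.23 and a limma adjusted p of 0.659, and it was 0.32 without replicate 3. The other H2-D1 probe set without the suffix lay under the filter value, at 6.56 ± 0.03 in vimentin-deficient and 6.51 ± 0.03 in wild-type macrophages, also without overlap.

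**Figure D2:**
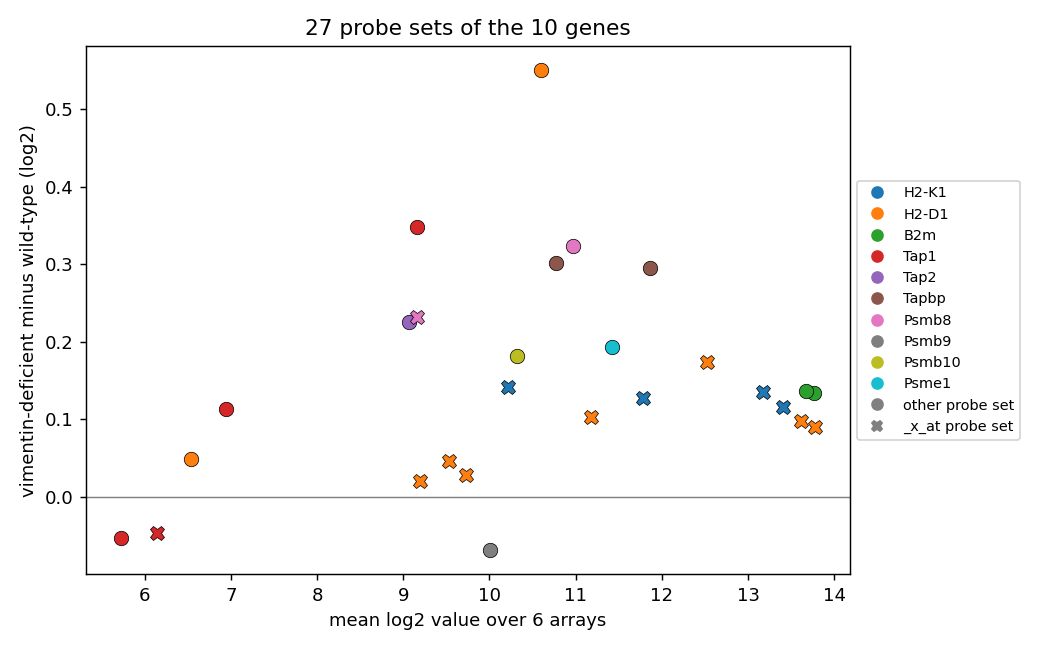
Difference between genotype means (vimentin-deficient minus wild-type, log2) against the mean log2 value over 6 arrays for the 27 probe sets of the 10 genes; crosses are probe sets with the _x suffix, circles the others. The difference is above 0 for 24 probe sets, and the 3 below 0 are the dimmest Tap1 probe sets and Psmb9.

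Over all 27 probe sets, 24 had a higher and 3 a lower mean in vimentin-deficient macrophages, where 42% of all probe sets with 1 symbol had a higher mean. The arrays did not overlap for 7, all of them higher, against 5.26% of those probe sets. Probe sets of 1 gene share a transcript and are not replicates.

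B2m is shown as the member whose window held the most of the searched motifs. It lies at chr2:122147437-122147736 on the plus strand (GRCm38.p6, RefSeq). In the order of the sequence, capitals mark GAAANNGAA, the core of the interferon-stimulated response element, 139 bases before the start, GGANTTNCC read on the other strand, an NF-kappaB site core, 126 bases before it, and CCAAT on the other strand, 53 bases before it. None of these overlap.
B2m: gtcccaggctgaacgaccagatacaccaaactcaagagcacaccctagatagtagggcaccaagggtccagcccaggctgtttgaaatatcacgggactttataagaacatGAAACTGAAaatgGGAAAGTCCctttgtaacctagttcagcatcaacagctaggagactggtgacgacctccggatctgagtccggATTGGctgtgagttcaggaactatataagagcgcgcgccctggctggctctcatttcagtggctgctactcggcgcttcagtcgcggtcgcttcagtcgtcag

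The RefSeq table held 10 windows of 9 of the 10 genes, 2 of them for alternative starts of H2-K1. The interferon-stimulated core occurred in 2 windows, B2m and Psme1, and in 8.56% of all windows. The gamma-activated core occurred in 1 and the NF-kappaB core in 1, against 8.3% and 3.95% of all windows. CCAAT occurred in 7 windows of 6 genes, against 37.4% of all windows, and TGACGTCA, the cAMP response element, in 0, against 1.79% of all windows. The CCAAT of Tap1 and that of Psmb9 are the same bases, and the 2 H2-K1 windows overlap, so these 7 are not independent. Both strands were searched, and a match of letters is not evidence of binding. Sites spelled otherwise than the searched patterns were not counted, so a window without a match may still hold such a site.

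Vimentin-deficient replicate 3 moved the members in both directions. Against the mean of replicates 1 and 2 it was higher by 0.73 for Tapbp, 0.39 for Tap2 and 0.37 for Psmb10, lower for Psmb9 (-0.46) and Tap1 (-0.20), and nearly level for Psmb8 (0.02). On the same array MHC class II genes, which present extracellular peptides to CD4 T cells, lay 1.94 above their wild-type mean over 8 tested genes, against -0.26 and 0.00 on replicates 1 and 2. H2-Aa, H2-Eb1 and H2-Ab1 read 13.00, 12.04 and 11.53 there, the highest of the 6 arrays for each. H2-Oa, which encodes a chain of a class II loading modulator, read 7.39 on that array, against 7.33 and 7.47 on replicates 1 and 2. Of the 8 tested macrophage markers 5 were lower and 3 higher by mean in vimentin-deficient macrophages (median log2 fold change -0.09). Cd68 was lower without overlap, at 13.62 ± 0.02 in vimentin-deficient and 13.73 ± 0.05 in wild-type macrophages (SD, n = 3 each), and Cd14 was the 1 marker higher without overlap. Cd14 read 12.76, 12.59 and 13.16 in vimentin-deficient, against 12.01, 12.12 and 12.12 in wild-type macrophages. On replicate 3, against the mean of replicates 1 and 2, Fcgr1 differed by 1.61, Mertk by 0.68, Csf1r by 0.56 and Cd14 by 0.48. Adgre1 differed by 0.37, Lyz2 by 0.28, Cd68 by -0.03 and Itgam by -0.95. Kit, the 1 tested of 5 mast cell and basophil markers, differed by -1.67. The dendritic cell list lay 0.01 above its wild-type mean on replicate 3, with Ccr7, Cd209a and Siglech under the filter value. The part of any of these in the class I values was not tested.

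The wild-type arrays differed among themselves as well. For all 10 genes wild-type replicate 1 was the lowest of the 3. The mean of the 10 genes lay -0.12, 0.05 and 0.07 from the wild-type mean on wild-type replicates 1, 2 and 3, and 0.14, 0.13 and 0.29 above it on vimentin-deficient replicates 1, 2 and 3. On this mean the groups did not overlap. The same held for the means of other class I heavy chains and of class I transactivators and interferon factors. Class I-like molecules separated with lower values, and the remaining pathway lists overlapped. Genes on the same arrays are not replicates.

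**Figure D3:**
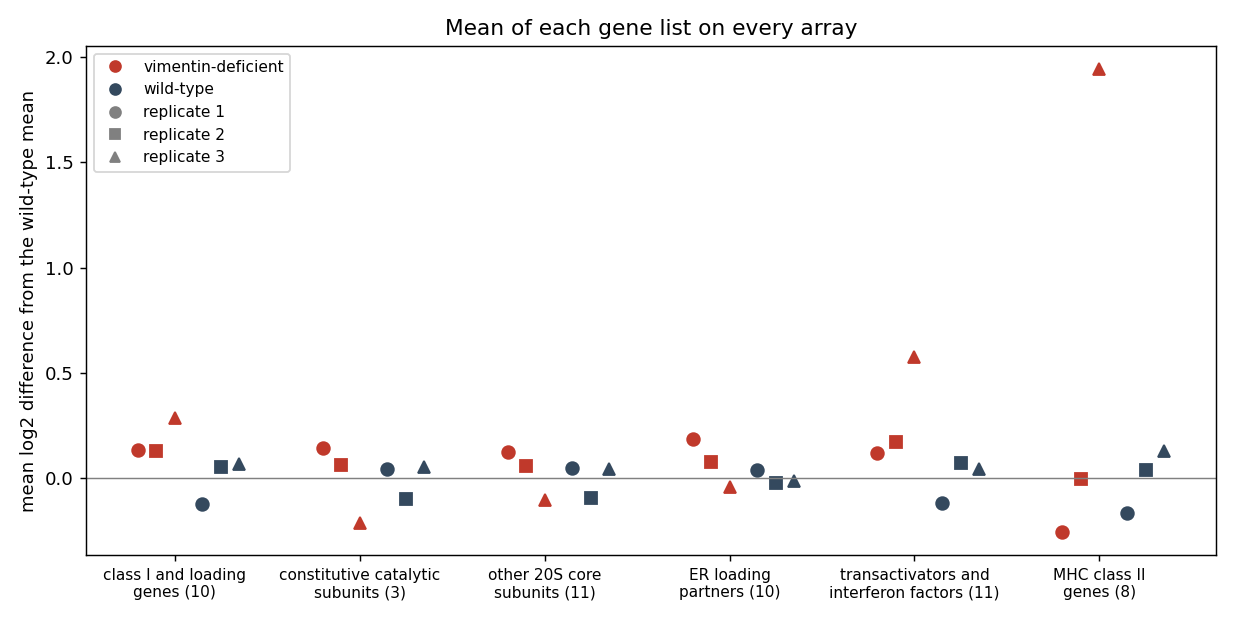
Mean log2 difference from the wild-type mean for 6 gene lists on every array, vimentin-deficient (red) left of wild-type (dark), with the replicate number as the symbol and the number of tested genes in brackets. Vimentin-deficient replicate 3 lies at 1.94 for MHC class II genes, at 0.29 for the 10 class I and loading genes and at -0.21 for the constitutive catalytic subunits.

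Other genes of class I presentation and its control were taken from lists chosen by function. Of 64 such genes 47 were tested, and 0 passed in either direction with 6 arrays, against 0.0223% of all tested genes. Of the 47, 28 had a higher and 19 a lower mean, where 39.6% of all tested genes had a higher mean. A further list held 10 MHC class II genes, of which 8 were tested: 7 had a higher mean with 6 arrays and 1 without vimentin-deficient replicate 3, and 0 passed either way. Without vimentin-deficient replicate 3, 4 of the 47 genes outside class II passed as higher and 0 as lower. Among all tested genes 1.31% passed as higher in that comparison. The 4 were Nlrc5, Irf7, Stat2 and H2-T24, none of them a class II gene. H2-T24 was tested only through its vimentin-deficient arrays, as its wild-type mean lay under the filter value.

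Among factors that control class I transcription, 11 of 14 were tested and 7 had a higher mean. Nlrc5 encodes the transactivator that binds class I promoters as part of a larger complex. It read 8.04, 7.93 and 8.48 in vimentin-deficient, against 7.54, 7.43 and 7.50 in wild-type macrophages, without overlap. Its log2 fold change was 0.66 (SE 0.14, limma adjusted p = 0.279), and 0.50 (SE 0.06, limma adjusted p = 0.00212) without replicate 3. Irf7, which encodes a factor that switches on interferon genes, had 1.37 (SE 0.22), Stat2 0.80 (SE 0.20) and Irf9 0.48 (SE 0.15). Stat2 and Irf9 encode parts of the complex that carries the type I interferon signal. Without replicate 3 these were 1.11, 0.56 and 0.32, and Irf9 did not pass (limma adjusted p = 0.102). The DNA-binding partners of Nlrc5 were closer to 0: Rfx5 had -0.08, Rfxank -0.06 and Rfxap 0.05. Irf1, which carries the interferon gamma signal to class I genes, had 0.09 (SE 0.24).

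**Figure D4:**
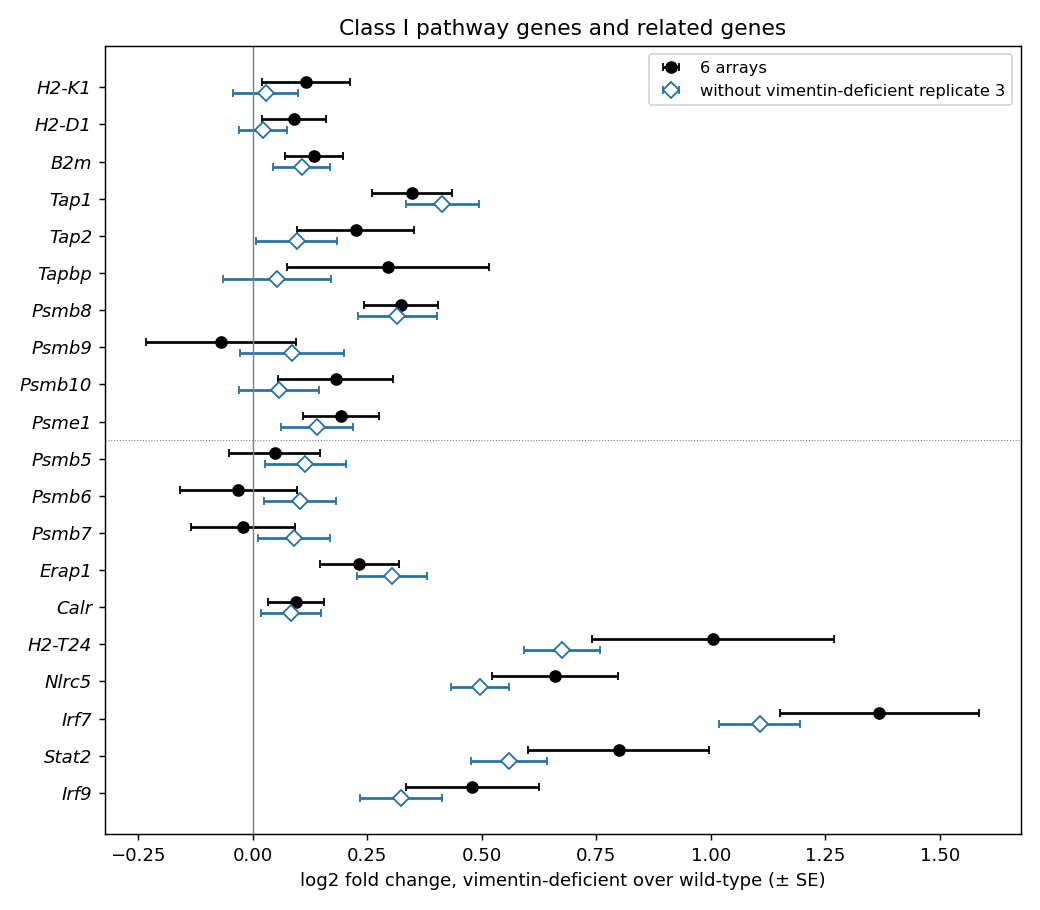
Log2 fold change of vimentin-deficient over wild-type (± SE) with 6 arrays (black) and without vimentin-deficient replicate 3 (blue diamonds), the 10 genes above the dotted line and other genes of the pathway below it. The members lie between -0.07 and 0.35 with 6 arrays, and Irf7, H2-T24, Stat2 and Nlrc5 lie further right.

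H2-T24 is a non-classical class I gene. It read 7.60, 7.60 and 8.59 in vimentin-deficient, against 6.74, 7.06 and 6.98 in wild-type macrophages. Its wild-type mean of 6.926 lay just under the filter value of 6.933, so only its vimentin-deficient arrays carried the gene past the filter. The groups did not overlap, and the log2 fold change was 1.00 (SE 0.26, limma adjusted p = 0.39), and 0.68 (SE 0.08, limma adjusted p = 0.00178) without replicate 3. These values are therefore a description and no support for a difference. Of 17 further heavy chain genes listed 5 were tested. The rest of these had log2 fold changes close to 0, with H2-M3 at 0.05, H2-Bl at 0.03, H2-Q10 at -0.02 and H2-T3 at -0.06.

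Class I-like molecules, which also pair with beta-2 microglobulin, had lower means for 4 of 4, as did 60.4% of all tested genes. Mr1, which presents vitamin metabolites, read 8.25, 8.33 and 8.22 in vimentin-deficient, against 8.44, 8.52 and 8.57 in wild-type macrophages. Its log2 fold change was -0.24 (SE 0.06, limma adjusted p = 0.39). Hfe, a regulator of iron uptake, had -0.31 (SE 0.10), and Cd1d1, which presents lipids, -0.23 (SE 0.10), which was -0.12 without replicate 3. For these 3 all vimentin-deficient arrays lay below all wild-type arrays, as for 10.1% of all tested genes, and for Fcgrt, the neonatal Fc receptor gene, the groups overlapped. Without replicate 3, 0 of the 4 passed.

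Peptide editing and folding genes of the endoplasmic reticulum were nearer to the members. Of 11 listed, 10 were tested and 7 had a higher mean, with a median of 0.08. Erap1, the aminopeptidase that trims peptides for class I, read 9.12, 9.01 and 8.85 in vimentin-deficient, against 8.81, 8.75 and 8.72 in wild-type macrophages, without overlap. Its log2 fold change was 0.23 (SE 0.09), and 0.30 (limma adjusted p = 0.0742) without replicate 3. Tapbpl, a peptide editor related to tapasin, had 0.10 (SE 0.07), the chaperone gene Calr 0.09 (SE 0.06) and Hspa5 0.17 (SE 0.10). The 11 other subunits of the proteasome core had a median of 0.02, between -0.07 for Psmb4 and 0.15 for Psma3, with 0.06 for Psma2 and 0.07 for Psma1. Among activators and assembly factors Psme3 had 0.15, Psme4 0.11 and Pomp -0.05.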

How the data were processed

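Log2 probe set values of 6 Affymetrix mouse arrays were used as deposited. The authors normalized and summarized them, and their method is not given here in any label or header. Their range, 5.43 to 14.50, shows the log2 scale. Of 45101 probe sets, 64 are controls. The platform annotation gave 1 symbol to 34945, several to 932 and none to 9160, and 34741 were matched by Entrez ID to a RefSeq gene table (GRCm38.p6), used for names only. Where a gene had several probe sets, the brightest over the 6 arrays stood for it. Genes at or above the 40th percentile of non-control probe sets, 6.93, were tested, 13445 of 18193.

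Genotype came from the sample titles. The 2 genotypes were compared by linear models in limma 3.58.1 (R 4.3.3) with moderated variances that follow the mean level and with no covariate. Benjamini-Hochberg adjustment ran over the whole tested table, and 0.05 was the threshold. Intervals are at 95% and use the moderated variance, and the small number of arrays limits their precision. The scripts were tested on simulated data. Promoter windows are from RefSeq, aligned with Biopython 1.88. No scan date or batch was at hand.

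The members and gene lists were chosen with earlier results of these data known. The text names all 10 members, the genes of each pathway list that passed or else the 4 with the smallest p, and the 3 constitutive catalytic subunits. Irf1, Rfx5, Rfxank, Rfxap, H2-Q10, Kit and the macrophage markers were named after their values were seen. Alternatives covered normalization, the filter on dim genes, how a gene's probe sets are combined, variance settings, array quality weights, a replicate block, the threshold and leaving out each array.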

Additional observations from a re-analysis of the deposited data

How the results depend on the processing

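The number of members past the threshold was 0 in every alternative with all 6 arrays, from quantile normalization and median centring to array quality weights and a threshold of 0.10. It was between 0 and 1 in the 6 fits without 1 array, where the 1 was Tap1 without vimentin-deficient replicate 3. Over all genes the count was 3 with 6 arrays, 5 with every probe set as a row, 93 with array quality weights (52 higher, 41 lower) and between 0 and 315 without 1 array. Without any single wild-type array it was 0, without vimentin-deficient replicate 2 it was 1, and without replicate 3 it was 315. Other pathway genes (class II included) past the threshold numbered 0 with 6 arrays, 2 with array quality weights (Irf7 and Nlrc5) and between 0 and 4 without 1 array. Without replicate 3, 10 members had a higher mean in place of 9, against 44.5% of all tested genes. Again 3 members lay above all wild-type arrays, but the share of all tested genes was not computed for 2 against 3 arrays. Fewer arrays separate more easily, so the unchanged count says little. That pair of comparisons was chosen after seeing the data.

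With the replicate number as a block, 0 genes, 0 members and 0 other pathway genes passed, and the smallest adjusted p over all genes was 0.062. Deviations of arrays with the same number correlated at 0.50, -0.19 and 0.05, and 1 of 3 vimentin-deficient arrays correlated best with its own number, so the numbers were not taken to pair the samples.

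Log2 fold changes of 9 members kept their sign in all alternatives. That of Psmb9 ran from -0.175 to 0.086 in the fits without 1 array. Among other genes the ranges without 1 array crossed 0 for H2-M3 (-0.022 to 0.13), Psmb5 (-0.022 to 0.11), Psmb6 (-0.12 to 0.10), Psmb7 (-0.11 to 0.09), Psma1 (-0.024 to 0.17), Psmb4 (-0.15 to 0.073), H2-Eb1 (-0.11 to 2.06), H2-Ab1 (-0.12 to 1.52) and H2-Aa (-0.19 to 2.00). With array quality weights Psmb6 had 0.057, Psmb7 0.069 and Psmb4 0.018. The causes were not tested.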

Other observations

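A further 3 probe sets name a member together with other genes and were left out by the rule. The probe set of H2-K1 and H2-D1 together read 11.70, 11.65 and 11.76 in vimentin-deficient, against 11.44, 11.78 and 11.68 in wild-type macrophages, a mean difference of 0.07 with overlap. Those shared with H2-Q2 and Gm38417, and with H2-Q5, were dim and differed by 0.08 and 0.01, both with overlap. None of the 3 separated the genotypes by all arrays.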
